A study of Mus musculus with 39 samples.

Results

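Genes of MHC class II antigen presentation were examined in microglia isolated with CD11b magnetic beads from the cerebrum of wildtype (WT) and 5XFAD mice. The group was fixed by name as 7 genes: H2-Aa, H2-Ab1, H2-Eb1, H2-DMa, H2-DMb1, Cd74 and Ciita. All 7 had a row in the female table of 46333 genes and in the male table of 54532 genes, and all 7 passed the filter on low counts in every comparison. 5XFAD mice carry familial Alzheimer's disease transgenes under a promoter active in neurons, so microglia do not drive the transgenes themselves. WT females of the C57BL/6J strain were crossed with 5XFAD males of a B6SJL stock, and the MHC haplotype of the animals was not determined here. Mice were kept in normoxia (NX, constant 21% oxygen) or exposed to chronic intermittent hypoxia (CIH), in which inspired oxygen alternated between 6.5% and 21% at 90-s intervals for 8 h per day, as the sample labels give it. The study's own methods state a slightly lower oxygen level and a longer daily exposure. Exposure began at 4 months of age, and females were taken at 10 months and males at 8 months. Each sex had WT NX, 5XFAD NX, WT CIH and 5XFAD CIH groups, with 5 libraries each except 4 for female WT NX, giving 39 libraries of bulk mRNA sequencing. The sexes differ in age and in the gene annotation of their tables and were not tested against each other.

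MHC class II molecules display peptides from engulfed material to CD4+ T cells. An alpha chain and a beta chain form each molecule, H2-Aa with H2-Ab1 in the A molecule and H2-Eb1 as the beta chain of the E molecule. Cd74, the invariant chain, fills the groove and steers the new molecule to endosomes, where lysosomal proteases trim it. H2-DMa and H2-DMb1 form H2-DM, which exchanges the last fragment of the invariant chain for an antigen peptide. Ciita is a coactivator that interferon gamma induces and that binds no DNA itself: it acts on factors assembled at the X and Y boxes of class II promoters. Resting microglia hold little class II protein, and class II rises in subsets of activated microglia near amyloid plaques. Border macrophages and dendritic cells of the brain's coverings hold much more.

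The promoter windows show letters that some of the class II genes share. In the male table's GRCm38 coordinates, the 5 class II chain genes among the members lay with 5 other class II loci in 252.303 kb of chromosome 17, and Ciita lay at chr16:10480059-10528418 on the plus strand. RefSeq promoter windows (GRCm38.p6, 250 bases before to 50 after each gene's start) matched 4 of the 7 members. The letters AACNNATGATGC (for the X box, N being any base) and TGATTGG (for the Y box) were chosen after these windows were read, the X box letters as those shared by H2-Eb1, H2-DMb1, H2-DMb2 and H2-Ob, and were searched on both strands. Capitals mark the matches below, and each sequence is written 5′ to 3′ on its gene's strand. H2-Eb1 and H2-DMb1 are shown because they held both strings of letters, H2-Aa as the other classical chain with a window, and H2-Ob and H2-Oa as the chains of the inhibitor of H2-DM. A window without the X box letters lacks only that string, and other forms of the X box were not searched.
H2-Eb1, chr17:34305758-34305832, plus strand: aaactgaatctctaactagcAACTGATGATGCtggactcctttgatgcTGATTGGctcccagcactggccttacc
H2-DMb1, chr17:34153079-34153154, plus strand: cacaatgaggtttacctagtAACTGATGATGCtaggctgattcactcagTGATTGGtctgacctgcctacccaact
H2-Ob, chr17:34238800-34238872, plus strand: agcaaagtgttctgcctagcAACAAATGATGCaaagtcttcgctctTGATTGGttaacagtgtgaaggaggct
H2-Aa, chr17:34287847-34287923, minus strand: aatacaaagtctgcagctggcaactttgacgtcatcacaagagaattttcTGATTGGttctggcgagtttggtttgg
H2-Oa, chr17:34092284-34092360, plus strand: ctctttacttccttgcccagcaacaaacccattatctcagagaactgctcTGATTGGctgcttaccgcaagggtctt

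The Y box letters began 50 bases before the start in H2-Aa, 61 in H2-Eb1 and 63 in H2-DMb1, all on the gene's own strand. The X box letters lay 16 bases before the Y box in H2-Eb1, 17 in H2-DMb1 and 14 in H2-Ob. Of all 32817 RefSeq windows, 7.80% held the Y box letters and 0.0396% the X box letters. Both stood in 5 windows (0.0152%): those of H2-Eb1, H2-DMb1, its neighbour H2-DMb2, H2-Ob and the predicted gene Gm38969, the first 4 of which set the X box letters. H2-DMa had 2 windows, both upstream of the gene start in the male table, with no match.

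Library depth ranged from 14731683 to 25906121 counts in females and from 13457293 to 23095627 counts in males. On the first principal component of the female libraries, which held 47.7% of the variance, the library labelled F 5XFAD NX 4 lay at -42.5, within the WT range of -58.2 to -27.9, while the other 9 5XFAD libraries lay from 35.9 to 69.8. Its level of Cst7, a gene of plaque-associated microglia, was 18.9 CPM (counts scaled to the library total) against 1112 to 2172 CPM in the other 4 5XFAD NX females. The main tests that use it are given with and without it, the pathway and marker lists and the ratios to Cd74 having been repeated without it after their values were seen, while mean levels and correlations include it. That library was singled out by a component that separates the genotypes and by Cst7, so leaving it out favours a genotype difference. Values without it are a description. Among males, the libraries M 5XFAD NX 4 and 5 lay at -1.94 and -3.65, between the other 5XFAD libraries (33.9 to 96.7) and the WT libraries (-73.2 to -12.8). Their Cst7 was at 1894 and 1972 CPM, against at most 28.6 CPM in WT males. The microglial markers Tmem119 and P2ry12 were at 809 CPM or more in every library.

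Per gene length, Cd74 had the highest mean level of the 7 genes in each of the 8 groups. Its mean over all libraries was 648 FPKM (fragments scaled to gene length and library total) in females, rank 64 of all genes, and 776 FPKM in males, rank 45. Ciita was lowest in every group, at a mean of 2.16 FPKM in females and 0.670 FPKM in males. Between them, H2-Aa, H2-Ab1, H2-Eb1, H2-DMa and H2-DMb1 had means of 47.9 to 218 FPKM in females and 95.5 to 199.997 FPKM in males. The range of Cd74 over a group's libraries stood apart from that of the next gene in 5 of the 8 groups, all but 5XFAD NX of either sex and male WT NX. H2-Aa and H2-Ab1 overlapped in every female group. The gene lengths differ between the tables (for H2-Eb1, 1669 bases as implied by the female counts and FPKM, and 1184 as deposited in the male table), so the order among the chains is not comparable between sexes.

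The clearest separation was between WT CIH and 5XFAD CIH, in both sexes. Cd74, H2-Aa and H2-Ab1 were higher in 5XFAD CIH without overlap, Cd74 by 4.02-fold in females and 5.37-fold in males, while Ciita did not pass the test in either sex. A differentially expressed gene (DEG) here has an FDR below 0.05 and an absolute log2FC above 1 in edgeR's quasi-likelihood test, which compares the second group with the first. In females 3 of 7 members were DEGs, against 13% of all genes tested, and 6 of 7 had an FDR below 0.05 (51.9% of all genes). Of the 6, H2-Eb1, H2-DMa and H2-DMb1 depended on the setting: with scaling by library size alone the edgeR adjusted p was 0.119, 0.0570 and 0.604, and over all alternatives with every library 3 to 6 members had an FDR below 0.05. In males 5 of 7 were DEGs (18.7% of all genes) and 6 of 7 had an FDR below 0.05 (49% of all genes). The median log2FC of the members was 0.74 in females and 1.19 in males, beside -0.02 and -0.06 over all genes.

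**Figure D1:**
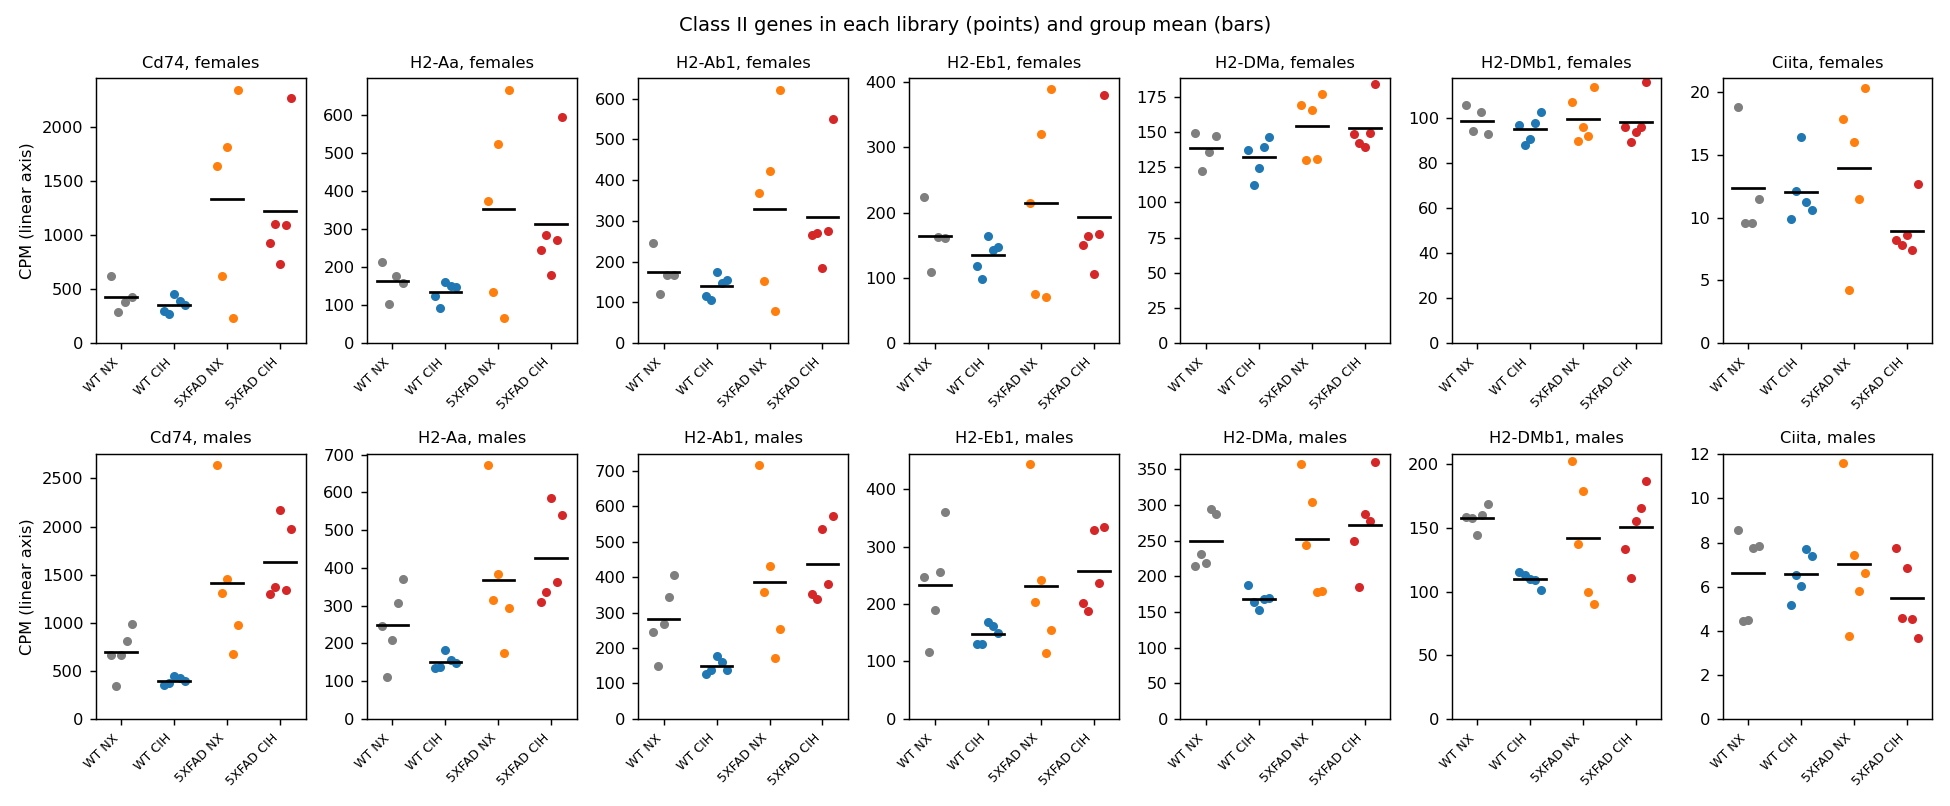
CPM of the 7 class II genes (columns) in each library (points) of females (top) and males (bottom), with group means as bars; each linear axis has its own scale and starts at 0. Under CIH, every 5XFAD library lay above every WT library for Cd74, H2-Aa and H2-Ab1 in both sexes, and for these genes the highest library of each sex was a 5XFAD NX library, while F 5XFAD NX 4 lay below every WT female.

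In females, the WT CIH libraries held Cd74 at 296, 270.3, 452, 389 and 356 CPM in replicate order (mean 353 ± 72.8, SD), and the 5XFAD CIH libraries at 921, 1100.4, 734, 1087 and 2268 CPM (1222 ± 604). The groups did not overlap, and log2FC was 2.01 (SE 0.28, edgeR adjusted p = 5.25e-05). The alpha chain gene H2-Aa was at 124, 93.7, 162, 152 and 147 CPM in WT CIH and at 247, 284, 179, 272 and 595 CPM in 5XFAD CIH. Every 5XFAD value lay above every WT value (log2FC 1.43, SE 0.28, edgeR adjusted p = 0.000945). Its partner H2-Ab1 was at 116, 106, 174, 149 and 155 CPM in WT CIH and at 265, 269.7, 185, 276 and 549.8 CPM in 5XFAD CIH, again without overlap (log2FC 1.35, SE 0.26, edgeR adjusted p = 0.000688). H2-Eb1, the beta chain of the other class II molecule, was at 119, 98.2, 164, 143 and 147 CPM and at 150.03, 165, 106, 166 and 379.6 CPM. It overlapped between the groups, with a log2FC of 0.74 (SE 0.29, edgeR adjusted p = 0.0492), and the log2FC was 0.31 to 0.90 with 1 library left out.

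The peptide exchange genes moved less in females. H2-DMa was at 112 to 146 CPM in WT CIH and 139 to 184 CPM in 5XFAD CIH (log2FC 0.41, edgeR adjusted p = 0.00515), and H2-DMb1 at 88.3 to 103 CPM and 89.3 to 116 CPM (log2FC 0.24, edgeR adjusted p = 0.0333). Both overlapped and stayed under the fold threshold. The coactivator gene Ciita was at 9.88, 12.1, 16.4, 11.2 and 10.6 CPM in WT CIH and at 8.18, 7.78, 8.63, 7.44 and 12.7 CPM in 5XFAD CIH, with 4 of 5 5XFAD libraries under the whole WT range (log2FC -0.22, SE 0.18, edgeR adjusted p = 0.315). Its log2FC was -0.43 with scaling by library size alone (edgeR adjusted p = 0.0453) and -0.41 without F 5XFAD CIH 5 (edgeR adjusted p = 0.0328), both under the fold threshold. The library F 5XFAD CIH 5 was the highest of its group for all 7 genes. The 3 DEGs remained DEGs in each of the 10 fits that left out 1 library, this one included.

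In males, Cd74 was at 352, 375, 444, 426 and 393 CPM in WT CIH (398 ± 37.3) and at 1296, 1372, 2176, 1338 and 1969.97 CPM in 5XFAD CIH (1630.3 ± 412), with log2FC 2.42 (SE 0.17, edgeR adjusted p = 5.97e-08). H2-Aa was at 136, 138, 181, 155 and 147 CPM in WT CIH and at 311, 337, 585, 363 and 539 CPM in 5XFAD CIH. Its log2FC was 1.89 (SE 0.19, edgeR adjusted p = 2.14e-06), and neither gene overlapped between the groups. H2-Ab1 was at 127, 138, 177, 161 and 139 CPM and at 352, 339.6, 534, 382 and 573 CPM (log2FC 1.95, SE 0.18, edgeR adjusted p = 8.89e-07). H2-Eb1 was at 129.98, 131, 169, 161 and 150.1 CPM and at 202, 188, 329.5, 236 and 334 CPM (log2FC 1.19, SE 0.18, edgeR adjusted p = 9.10e-05). Both beta chain genes were fully separated, and all 4 of these genes remained DEGs in each of 10 fits without 1 library.

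H2-DMa was at 188, 164, 153, 168 and 169 CPM in male WT CIH and at 249, 185, 287, 278 and 361 CPM in 5XFAD CIH, with 1 5XFAD library inside the WT range (log2FC 1.09, SE 0.17, edgeR adjusted p = 0.000135). Without M 5XFAD CIH 5 its log2FC was 0.91 and it was no longer a DEG. H2-DMb1 was at 102 to 115 CPM and 111 to 187 CPM, with 4 of 5 5XFAD libraries above all WT libraries (log2FC 0.85, edgeR adjusted p = 0.000371). Ciita was at 5.19, 6.53, 6.04, 7.69 and 7.38 CPM in WT CIH and at 7.74, 4.596, 6.87, 4.55 and 3.67 CPM in 5XFAD CIH, where 3 libraries lay under the WT range and 1 above it (log2FC 0.10, SE 0.22, edgeR adjusted p = 0.713). With scaling by library size alone, which moves the median log2FC of all genes by -0.37, H2-Eb1 was at 0.80 and H2-DMa at 0.69, under the fold threshold, and Ciita turned to -0.27.

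**Figure D2:**
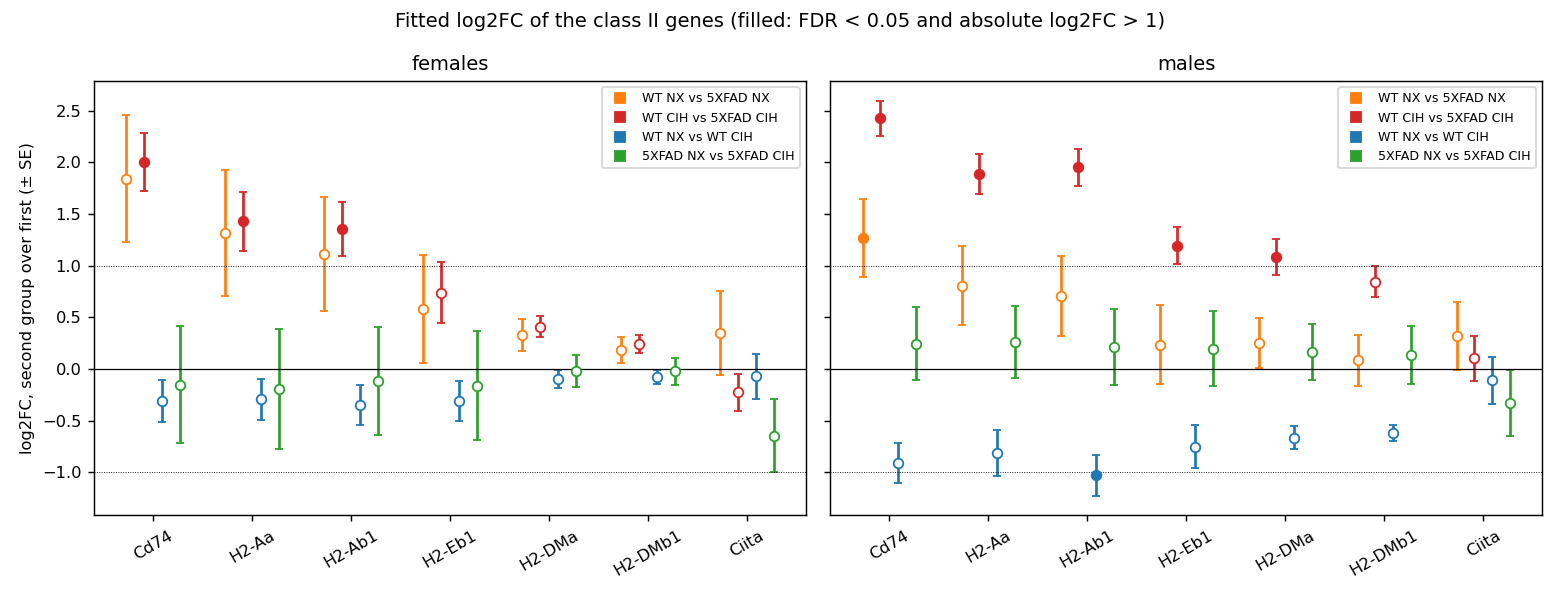
Fitted log2FC (± SE, vertical axis) of each class II gene in 4 comparisons, females left and males right; filled points are DEGs and dotted lines mark a log2FC of 1 and -1. The 5XFAD CIH over WT CIH values (red) fall from Cd74 to Ciita in females, and male WT CIH over WT NX (blue) lies below 0 for all 7 genes.

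Under NX all 7 members had a positive log2FC in both sexes, but the 5XFAD libraries spread widely and few values passed the test. The direction turned for H2-Eb1 with the replicate block in females (-0.054), and in males with scaling by library size alone for H2-DMb1 (-0.15) and H2-Eb1 (-0.011) and with the block and both limma fits for H2-DMb1 (-0.026, -0.037 and -0.038). In females 0 of 7 members were DEGs (5.99% of all genes, 869 of 14513), and Cd74 came closest (log2FC 1.84, SE 0.61, edgeR adjusted p = 0.0694). Cd74 was at 621, 288, 382 and 427 CPM in WT NX and at 1639, 623, 1808, 229.6 and 2339 CPM in 5XFAD NX. The 4 other 5XFAD libraries lay above all WT libraries, and the library labelled F 5XFAD NX 4 lay below them all. H2-Aa was at 215, 105, 178 and 158 CPM and at 376, 136, 524, 67.1 and 667 CPM (log2FC 1.32, edgeR adjusted p = 0.158). H2-Ab1 was at 245, 120.1, 167 and 168 CPM and at 368, 152, 422, 77.9 and 622 CPM (log2FC 1.12, edgeR adjusted p = 0.181). In both chain genes 3 of 5 5XFAD libraries lay above the WT range and F 5XFAD NX 4 below it.

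H2-Eb1 was at 223, 109, 162 and 160.3 CPM in female WT NX and at 215, 75.9, 320.02, 70.1 and 389 CPM in 5XFAD NX, with 2 libraries above and 2 below the WT range (log2FC 0.58, edgeR adjusted p = 0.451). H2-DMa (122 to 149 against 129.8 to 177 CPM), H2-DMb1 (93.0 to 106 against 90.1 to 114 CPM) and Ciita (9.57 to 18.8 against 4.25 to 20.3 CPM) overlapped, with log2FC of 0.33, 0.19 and 0.35 and edgeR adjusted p of 0.162, 0.327 and 0.569. Without the library labelled F 5XFAD NX 4, 3 members were DEGs by edgeR: Cd74 (log2FC 2.12, adjusted p = 0.00127), H2-Aa (1.59, adjusted p = 0.00956) and H2-Ab1 (1.38, adjusted p = 0.0117). In that fit H2-DMa (log2FC 0.43, edgeR adjusted p = 0.00784) and H2-DMb1 (0.27, edgeR adjusted p = 0.0440) also had an FDR below 0.05, so that 5 of 7 members did, against 44% of all genes. H2-Eb1 (0.82, edgeR adjusted p = 0.122) and Ciita (0.45, edgeR adjusted p = 0.383) did not pass, and 1880 of 14149 genes (13.3%) were DEGs. Leaving that library out favours a genotype difference, so the values of this fit are a description. In WT NX, F WT NX 1 was the highest library for all 7 members, and its monocyte markers summed to 513 CPM against a group median of 62.9 CPM. The part of that in the group's class II level was not tested.

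In NX males, 1 of 7 members was a DEG (8.25% of all genes): Cd74, at 666, 345, 662, 813 and 990.2 CPM in WT NX (695 ± 238) and at 2638, 1312, 1451, 678 and 974 CPM in 5XFAD NX (1411 ± 749). In all, 3 5XFAD libraries lay above the WT range and M 5XFAD NX 4 and 5 within it, and log2FC was 1.27 (SE 0.38, edgeR adjusted p = 0.0347). Cd74 kept its call in 3 of the 10 fits without 1 library. It lost it without any of M WT NX 1 to 4 or M 5XFAD NX 1 to 3, with log2FC from 0.86 (without M 5XFAD NX 1) to 1.34. H2-Aa was at 245, 111, 209.9, 308 and 369.7 CPM and at 673, 314, 384, 174 and 293 CPM (log2FC 0.80, edgeR adjusted p = 0.181). H2-Ab1 was at 244, 148, 268, 343 and 406 CPM and at 718, 359, 431, 172 and 254 CPM (log2FC 0.70, edgeR adjusted p = 0.254). For both, only 2 of the 5 5XFAD libraries exceeded the WT range.

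H2-Eb1 was at 247, 116, 189.9, 255 and 359.6 CPM in male WT NX and at 444, 203, 242, 114 and 154 CPM in 5XFAD NX (log2FC 0.24, edgeR adjusted p = 0.749). H2-DMa was at 214, 231, 219, 294 and 287 CPM and at 358, 243, 305, 178 and 179 CPM (log2FC 0.25, edgeR adjusted p = 0.551), and H2-DMb1 at 159, 158, 144, 160.1 and 169 CPM and at 202, 137, 179, 100.1 and 90.3 CPM (log2FC 0.08, edgeR adjusted p = 0.872). In both genes of H2-DM, M 5XFAD NX 4 and 5 were the lowest of all NX male libraries. Ciita was at 4.43 to 8.57 CPM and 3.78 to 11.6 CPM (log2FC 0.32, edgeR adjusted p = 0.589). M 5XFAD NX 1 was the highest library for all 7 genes. Without both M 5XFAD NX 4 and 5, left out because of their place on a component that separates the genotypes, the log2FC was 1.67 for Cd74, 1.18 for H2-Aa and 1.14 for H2-Ab1, all 3 DEGs by edgeR (adjusted p from 0.000259 to 0.00736), against 11.8% of all genes in that fit. That selection favours a genotype difference, so these values are a description.

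Of the 4 comparisons of CIH with NX, the one in WT males gave members that passed the test, and whether it differed from that in WT females was not tested. All 7 members had a lower level in WT CIH than in WT NX, 6 of 7 with an FDR below 0.05 (28.6% of all genes), and 1 of 7 was a DEG (2.51% of all genes). With all 4 male groups in 1 fit none of the 7 had an FDR below 0.05 (edgeR adjusted p from 0.0690 to 0.824) and 0% of 15813 genes did, while in the other fits with every library 4 to 6 members did. The median log2FC of the members was -0.75, beside -0.01 over all genes. H2-DMa (153 to 188 CPM in WT CIH, 214 to 294 in WT NX) and H2-DMb1 (102 to 115 against 144 to 169 CPM) were lower without overlap, with log2FC of -0.66 (SE 0.11, edgeR adjusted p = 0.000608) and -0.62 (SE 0.08, edgeR adjusted p = 0.000266). H2-Ab1 had the largest fall, log2FC -1.03 (SE 0.20, edgeR adjusted p = 0.00163), with 3 of 5 WT CIH libraries below the WT NX range. Its call rested on a value near the fold threshold: without M WT NX 4, M WT NX 5, M WT CIH 1 or M WT CIH 5 it was -0.94, -0.87, -0.98 and -0.99 and no DEG. Cd74 (-0.91, edgeR adjusted p = 0.00305), H2-Aa (-0.81, edgeR adjusted p = 0.0129) and H2-Eb1 (-0.75, edgeR adjusted p = 0.0134) overlapped between the groups, and for all 3 M WT NX 2 lay below every WT CIH library. Without that library H2-Aa (-1.003), H2-Ab1 and Cd74 (-1.08) were DEGs, against 2.84% of all genes. Ciita did not pass the test (log2FC -0.11, SE 0.23, edgeR adjusted p = 0.757).

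Genes of other blood cells were lower in the same WT CIH males. Of 6 neutrophil markers 4 were DEGs, against 2.51% of all genes (S100a8, S100a9, Retnlg and Camp, log2FC -1.81 to -1.38), with summed levels of 92.6 to 256 CPM in WT CIH and 186 to 929 CPM in WT NX. Of 7 monocyte markers 3 were DEGs (Ly6c2 -1.55, Plac8 -1.32, Chil3 -1.41), with sums of 47.1 to 96.2 CPM and 70.7 to 171 CPM. The B cell list fell from 701 to 912 CPM to 479 to 618 CPM without overlap, and that sum was mostly Ighm (log2FC -0.55, edgeR adjusted p = 0.00128). None of the 8 border macrophage markers was a DEG, and 3 were lower at an FDR below 0.05, near the 28.6% of all genes that passed in either direction (Cbr2 -0.69, Ms4a7 -0.48 and Pf4 -0.79). Of the 8 microglial markers 4 were lower in the same way (Tmem119 -0.52, Olfml3 -0.59, Fcrls -0.26 and Gpr34 -0.21), and of 6 dendritic cell markers tested none. With all 4 groups in 1 fit, no gene of these lists had an FDR below 0.05. The part of these cells in the fall of class II was not tested, and in bulk samples fewer cells of a type and less RNA per cell cannot be told apart.

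The other treatment comparisons gave no call. Between WT NX and WT CIH females, all 7 log2FC lay from -0.35 to -0.07 (edgeR adjusted p of at least 0.960). Here 0 of 7 members and 0% of 14583 genes were DEGs by edgeR and DESeq2, while 565 genes had an unadjusted p below 0.05. Between 5XFAD NX and 5XFAD CIH females, log2FC ran from -0.64 (Ciita, SE 0.35) to -0.02 (H2-DMa), and Cd74 was at -0.15 (SE 0.56, edgeR adjusted p = 0.998). DEGs were 0% of 14578 genes by edgeR and 0 by DESeq2, with 470 at an unadjusted p below 0.05. Without the library labelled F 5XFAD NX 4, Cd74 was at -0.43 (SE 0.38) and Ciita at -0.76 (SE 0.34), the latter with an unadjusted edgeR p of 0.0469 and an adjusted p of 0.652. In 5XFAD males, log2FC ran from -0.32 (Ciita) to 0.26 (H2-Aa, SE 0.35) with an edgeR adjusted p of 0.994 for every member. Without both M 5XFAD NX 4 and 5 the 6 members other than Ciita turned to between -0.21 and -0.11, and none passed. There 0% of 14334 genes were DEGs by edgeR and 1 by DESeq2, with 473 at an unadjusted p below 0.05.

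Whether the genotype difference itself differed between CIH and NX was tested with an interaction over the 4 groups of a sex. In males, 6 of 7 estimates were positive: 1.24 for H2-Ab1 (SE 0.46, edgeR adjusted p = 0.131), 1.15 for Cd74 (SE 0.44, edgeR adjusted p = 0.136), 1.07 for H2-Aa, 0.95 for H2-Eb1, 0.83 for H2-DMa and 0.75 for H2-DMb1, with Ciita at -0.22. No member passed after adjustment (0 of 7, 0% of 15813 genes by edgeR), although 3857 genes had an unadjusted p below 0.05 and DESeq2 called 308. Without M 5XFAD NX 1, the library with the highest class II level of its group, 5 members were DEGs (edgeR adjusted p from 0.0466 to 0.0489), against 3.03% of all genes (478 of 15763). Without both M 5XFAD NX 4 and 5 the estimates were lower, 0.80 for H2-Ab1 and 0.74 for Cd74, no member was a DEG (edgeR adjusted p of at least 0.461) and 1619 genes had an unadjusted p below 0.05. In females the estimates lay from -0.58 (Ciita) to 0.22 (H2-Ab1), with edgeR adjusted p of at least 0.952. Of 15582 genes 0% were DEGs by edgeR and 0 by DESeq2, with 589 at an unadjusted p below 0.05, and without the library labelled F 5XFAD NX 4 the estimates lay from -0.69 to -0.03. These comparisons share libraries: the same WT CIH libraries stand in the treatment comparison of WT and in the genotype comparison under CIH, so a low WT CIH level enters the male genotype difference under CIH as well.

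The members did not rise in proportion. The ratio of each gene to Cd74 within a library does not depend on how libraries are scaled and was compared on deposited FPKM with an exact two-sided permutation test, a measure chosen after the values were seen. Of 48 tests, 21 passed an adjusted p of 0.05, and 20 of these were among the 24 genotype tests. The tests of a comparison share Cd74 as denominator, so they are not separate results. Cd74 had the largest log2FC of the members in every genotype comparison, and a member that rose less falls against it. H2-Eb1 fell most among the classical chains: its log2 ratio to Cd74 was -1.72 ± 0.10 in female WT NX (SD, n = 4) and -2.89 ± 0.52 in 5XFAD NX (n = 5, exact permutation adjusted p = 0.0363), and -1.73 ± 0.09 in WT CIH and -3.03 ± 0.09 in 5XFAD CIH (exact permutation adjusted p = 0.0212). In males it was -1.34 ± 0.15 and -2.36 ± 0.06 under NX, and -1.17 ± 0.06 and -2.42 ± 0.14 under CIH (exact permutation adjusted p = 0.0212 for each). Every 5XFAD library lay below every WT library of its sex and treatment. H2-Eb1 thus went from 30.3% of Cd74 in female WT NX to 13.5% in 5XFAD NX, and from 39.6% to 19.4% in NX males.

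The A molecule genes fell less against Cd74, with log2 differences between 5XFAD and WT of -0.56 and -0.58 in females and -0.42 and -0.55 in males for H2-Aa (NX and CIH), and of -0.67, -0.63, -0.59 and -0.47 for H2-Ab1. Each of these comparisons was fully separated. The H2-DM genes had differences of -0.98 to -1.66 in 3 of the 4 comparisons, without overlap, and overlapped in NX females (exact permutation adjusted p = 0.218 for both), where the differences were -1.13 and -1.26. For Ciita the difference was -2.14 in CIH females and -2.31 in CIH males (exact permutation adjusted p = 0.0212 for both), while the NX differences of -1.22 in females and -0.90 in males did not pass (exact permutation adjusted p = 0.152 and 0.0693). Without the library labelled F 5XFAD NX 4, all 6 ratios of NX females were fully separated, every 5XFAD library lying below every WT library. The differences were then -0.60 for H2-Aa, -0.77 for H2-Ab1, -1.38 for H2-Eb1, -1.60 for H2-DMa, -1.77 for H2-DMb1 and -1.72 for Ciita. Each had the smallest exact two-sided permutation p that 4 against 4 libraries allow, 0.0286, which gave an adjusted p of 0.0571, so H2-Aa, H2-Ab1 and H2-Eb1 no longer passed there. The library labelled F 5XFAD NX 4 had an H2-Eb1 ratio of -2.05, an H2-Aa ratio of -1.55 and an H2-Ab1 ratio of -1.42, each below the lowest WT female (-1.82, -1.31 and -1.24). Its H2-DMa ratio of -2.01 and Ciita ratio of -6.37 lay above every WT female library. Of the treatment comparisons, only Ciita in WT males passed, higher against Cd74 by 0.76 in WT CIH (exact permutation adjusted p = 0.0212), with Cd74 lower and Ciita not. The smallest exact p is 0.00794 with 5 against 5 libraries and 0.0159 with 4 against 5.

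**Figure D3:**
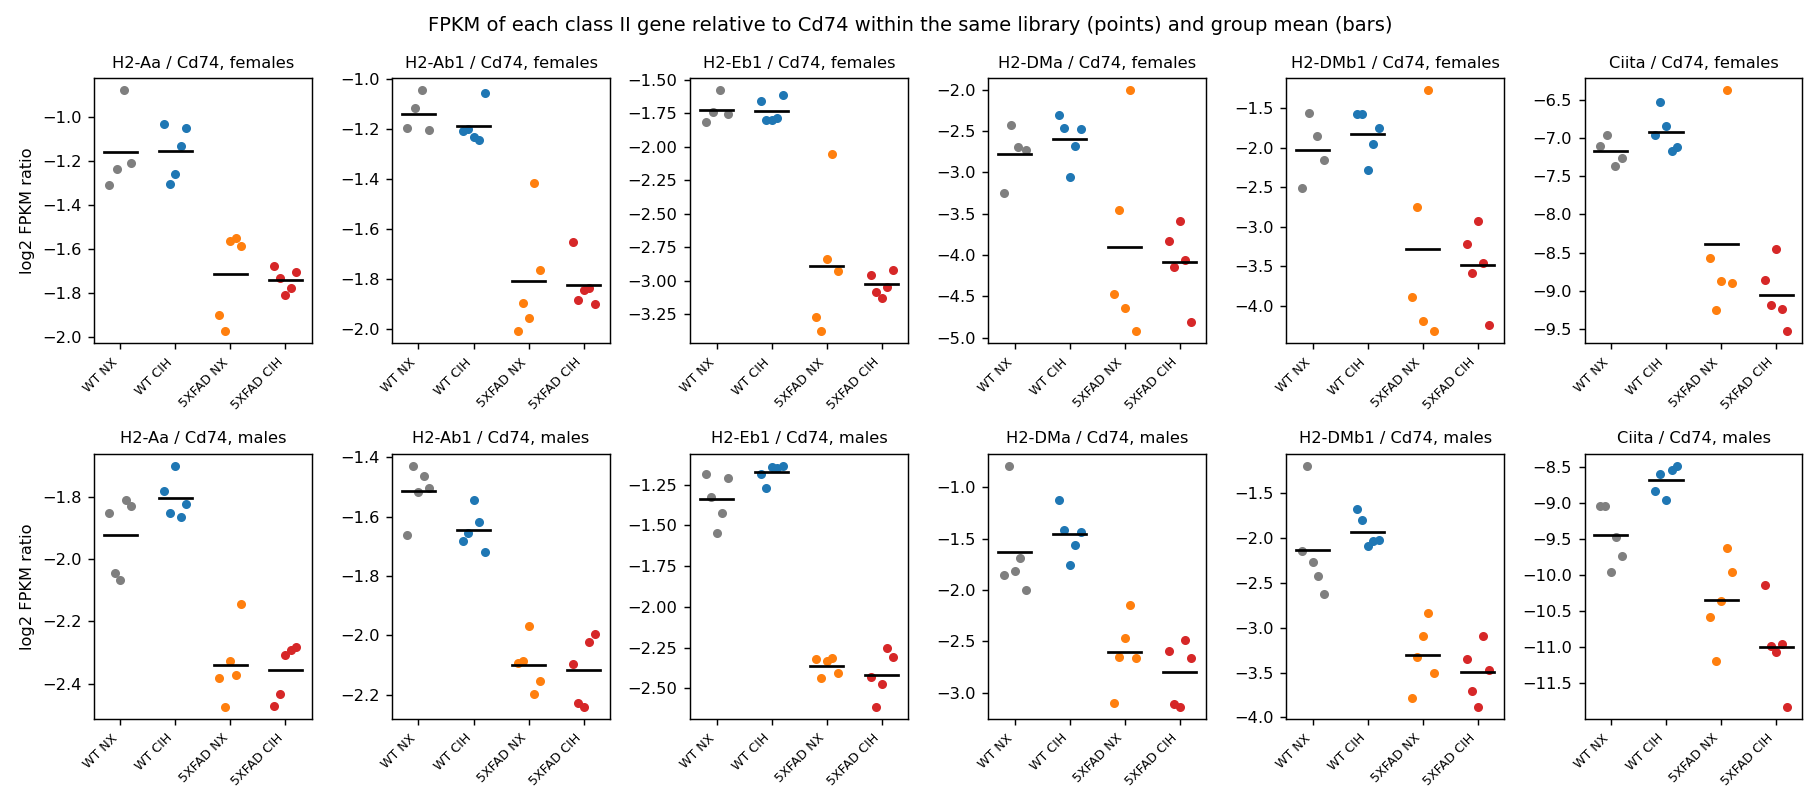
Log2 ratio of FPKM of each class II gene to Cd74 (vertical axis) within each library (points) of females (top) and males (bottom), with group means as bars and an own scale per panel. For H2-Aa, H2-Ab1 and H2-Eb1, every 5XFAD library lies below every WT library of the same sex and treatment, with H2-Eb1 means from -1.72 to -2.89 in NX females.

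Among the other class II loci, the chains of H2-O, the inhibitor of H2-DM, were higher in 5XFAD. H2-Oa had a log2FC of 0.79 in NX females (edgeR adjusted p = 0.0362), 0.79 in CIH females (0.000592), 0.74 in NX males (0.0427) and 1.51 in CIH males, a DEG in the last (edgeR adjusted p = 5.25e-07). H2-Ob was at 0.52 in CIH females, 0.66 in NX males and 0.82 in CIH males (edgeR adjusted p = 7.63e-05, 0.000706 and 1.19e-05), and at 0.52 without passing in NX females (edgeR adjusted p = 0.0689). Without the library labelled F 5XFAD NX 4, the NX female values were 0.92 for H2-Oa (edgeR adjusted p = 0.000373) and 0.64 for H2-Ob (edgeR adjusted p = 0.000254). In WT males H2-Oa fell with CIH (log2FC -0.67, edgeR adjusted p = 0.000868). H2-DMb2, a near-identical copy of H2-DMb1 whose reads cannot be cleanly assigned, was at -0.71 in CIH females (edgeR adjusted p = 4.57e-05), the opposite direction to H2-DMb1. H2-Eb2 and H2-Ea stayed below 1 CPM in every library. H2-Ea, which would pair with H2-Eb1 and which the male table names as a pseudogene, was at 0 counts in every female WT NX and 5XFAD CIH library.

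None of the 7 genes of the promoter factors (Rfx5, Rfxank, Rfxap, Creb1, Nfya, Nfyb, Nfyc) was a DEG between genotypes. In CIH females 4 of 7 were lower at an FDR below 0.05, against 51.9% of all genes: Rfx5 (-0.30), Rfxank (-0.26), Rfxap (-0.40) and Creb1 (-0.22). In CIH males Rfx5 (-0.52) and Creb1 (-0.55) were lower (49% of all genes had an FDR below 0.05), and in WT CIH against WT NX males Creb1 was higher (0.70, edgeR adjusted p = 0.000292) and Rfxank lower (-0.45, edgeR adjusted p = 0.0299). Nfya, Nfyb and Nfyc, which make up the Y box factor NF-Y, passed in none of these comparisons. Under NX none of the 7 passed in either sex. With the library labelled F 5XFAD NX 4 left out, Rfx5 (-0.32) and Nfyb (-0.33) were lower in NX females (edgeR adjusted p = 0.0124 and 0.0270), where 44% of all genes had an FDR below 0.05. Of 9 genes tested of interferon gamma signalling and Ciita induction, 1 was a DEG, higher, in each genotype comparison (5.99%, 13%, 8.25% and 18.7% of all genes). The order is NX females, CIH females, NX males and CIH males. At an FDR below 0.05, 1, 2, 1 and 4 were higher and 1, 2, 1 and 2 lower (13.9%, 51.9%, 17.8% and 49% of all genes). The receptor gene Ifngr1 was lower in all 4 (-0.67, -0.73, -0.83 and -0.57) under the fold threshold, and Ifng itself was at no more than 1.22 CPM in any library.

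Of 7 antigen processing genes, 2, 3, 3 and 3 were DEGs in NX females, CIH females, NX males and CIH males (5.99%, 13%, 8.25% and 18.7% of all genes), all of them cathepsins and higher. Ctsd and Ctsb, aspartic and cysteine proteases of the lysosome, were DEGs in all 4 genotype comparisons (Ctsd 1.70, 1.81, 1.68 and 2.42; Ctsb 1.56, 1.82, 1.72 and 2.13 in NX females, CIH females, NX males and CIH males). Ctsl was a DEG in 3 of 4, with 1.18 in NX females not passing (edgeR adjusted p = 0.0610), at 1.74 in CIH females, 1.57 in NX males and 2.11 in CIH males. Ctss, the protease that trims the invariant chain in many antigen presenting cells, was higher under CIH (0.66 in females, 0.996 in males) at an FDR below 0.05. Others were lower at an FDR below 0.05 and under the fold threshold: Lgmn, a lysosomal protease, in CIH females (-0.29) and NX males (-0.43), Ifi30, a lysosomal thiol reductase, in CIH females (-0.32), and Sppl2a, an intramembrane protease that acts on the invariant chain remnant, in CIH males (-0.40). In WT CIH males 6 of these 7 were lower than in WT NX at an FDR below 0.05 (28.6% of all genes), none a DEG (Ctsd -0.51, Ctss -0.44, Ctsb -0.32), and Sppl2a was higher (0.30), but none of the 7 passed with all 4 groups in 1 fit, where 0% of 15813 genes passed. Of the co-stimulatory and checkpoint genes, Cd274, which encodes the inhibitory ligand PD-L1, was a DEG in all 4 genotype comparisons (1.22, 1.31, 2.23 and 2.21). Cd80, a co-stimulatory ligand, was lower in all 4 (-0.59, -0.55, -0.63 and -0.60) under the fold threshold, Cd86 in none. Cd40 was a DEG only between WT NX and WT CIH males (-1.04, edgeR adjusted p = 0.0227). Of the genes of class II turnover, Cd83, which stabilises surface class II, was a DEG in all 4 genotype comparisons (1.38, 1.39, 1.29 and 1.59). Marchf1, a ubiquitin ligase that removes class II from the surface, was lower under CIH in females (-0.56) and males (-0.77) and did not pass under NX (-0.30 and -0.31). Marchf8 was higher under CIH (0.65 and 0.42) and in NX males (0.71, edgeR adjusted p = 0.00245), with 0.56 in NX females not passing (edgeR adjusted p = 0.0575). With the library labelled F 5XFAD NX 4 left out, Ctsd (1.95), Ctsb (1.80), Cd274 (1.40) and Cd83 (1.57) were again DEGs in NX females and Ctsl (1.40, edgeR adjusted p = 0.000506) was one too, while Ctss (0.69), Ifngr1 (-0.79), Cd80 (-0.65), Marchf1 (-0.41) and Marchf8 (0.68) had an FDR below 0.05.

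**Figure D4:**
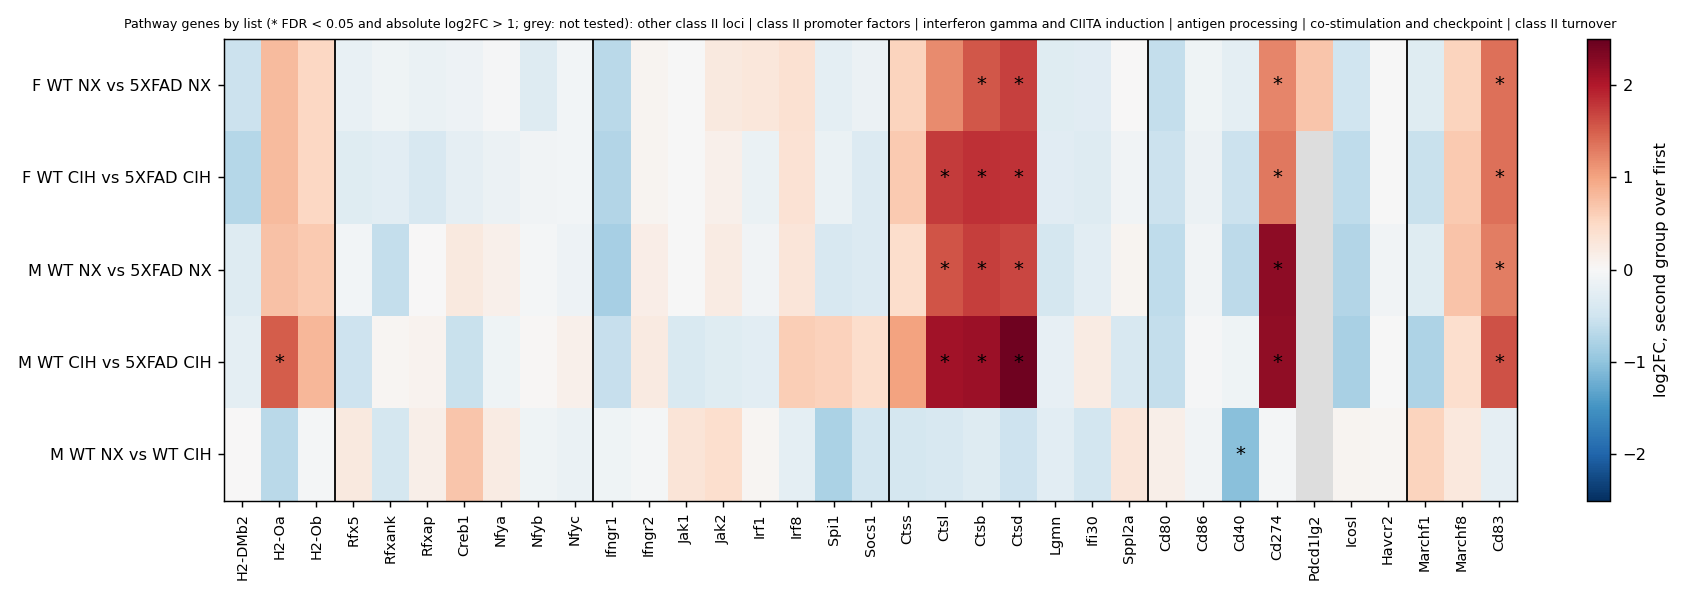
Log2FC (colour, second group over first) of class II pathway genes (columns, by list) in 4 genotype comparisons and in male WT NX vs WT CIH (rows); asterisks mark DEGs and grey cells were not tested. Ctsb, Ctsd, Cd274 and Cd83 carry an asterisk in all 4 genotype rows, and H2-Oa in the row of CIH males.

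Most border macrophage and dendritic cell markers that passed the test were lower in 5XFAD, and their part in the class II values was not tested. The 8 border macrophage markers summed to 88.2 to 142 CPM in female 5XFAD CIH and 184 to 344 CPM in WT CIH, and to 91.7 to 195 and 175 to 373 CPM in males. In the 4 genotype comparisons 6, 5, 5 and 1 of these 8 were DEGs (NX females, CIH females, NX males, CIH males), all lower, against 5.99%, 13%, 8.25% and 18.7% of all genes. The 1 of 8 in CIH males was below the share over all genes, and none of the 8 was higher at an FDR below 0.05. The 8 dendritic cell markers summed to 27.1 to 35.3 CPM in female 5XFAD CIH and 60.0 to 74.7 CPM in WT CIH, and to 31.5 to 61.1 and 83.1 to 96.5 CPM in males. Cd209a was a DEG in all 4, lower (-2.02, -2.20, -2.15 and -1.60), and Flt3 was a DEG, lower, in CIH females and in males under both treatments, while Clec9a was higher in CIH females (1.02, edgeR adjusted p = 0.00323). With the library labelled F 5XFAD NX 4 left out, 6 border macrophage markers and 3 dendritic cell markers (Cd209a, Clec10a and Flt3) were DEGs in NX females, all lower, against 13.3% of all genes in that fit, and Clec9a was higher at an FDR below 0.05 (0.99, edgeR adjusted p = 0.0421). B cell sums were lower or overlapped. Of the neutrophil markers, 4 of 5 tested were lower in CIH females at an FDR below 0.05 (51.9% of all genes). In CIH males 1 of 6, Camp, was a DEG, lower (18.7% of all genes), and under NX none passed. With the library labelled F 5XFAD NX 4 left out, 2 of 5 were DEGs, lower, in NX females. That library held 192 CPM of neutrophil markers, against 7.56 to 36.6 CPM in the other 5XFAD NX females.

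Monocyte markers moved in both directions. Of 7 tested, Ccr2, a chemokine receptor of blood monocytes, was a DEG in NX females (-1.31) and CIH females (-1.08), lower, and was lower in CIH males (-0.91) at an FDR below 0.05. Fn1 was higher in CIH females (0.99, edgeR adjusted p = 0.0335), and Ly6c2 was a DEG, higher, in CIH males (1.04, edgeR adjusted p = 0.0120). The median log2FC of the list was -1.27, -0.58, -0.53 and 0.34 in NX females, CIH females, NX males and CIH males. In female WT NX the markers summed to 513 CPM in F WT NX 1 and to 40.2, 69.0 and 56.9 CPM in the other libraries. The 5XFAD NX sums were 38.9 to 66.9 CPM. The part of F WT NX 1 in the NX female values was not tested. With the library labelled F 5XFAD NX 4 left out, 3 of 7 were DEGs in NX females, all lower, with Ccr2 and Plac8 (-1.53) among them (13.3% of all genes in that fit). The part of monocytes in the class II values was not tested.

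T cell markers were higher in CIH males. The 7 summed to 6.73 to 12.5 CPM in 5XFAD CIH and 1.66 to 5.66 CPM in WT CIH without overlap. Of the 7, 4 passed the filter on low counts there, and 1 did between WT NX and WT CIH males. Cd3e (log2FC 4.34), Cd3g (2.73) and Cd8a (4.17) were DEGs, against 18.7% of all genes, with Cd3e at 0.680 to 3.58 CPM in 5XFAD CIH. Genes that pass the filter through the 5XFAD CIH libraries are favoured to come out higher, so these calls are a description. Mouse T cells hold little class II, and the part of any T cell signal in the class II values was not tested. In CIH females the T cell sums overlapped (0.991 to 8.06 against 0.904 to 2.55 CPM). Of the 8 microglial markers, 4, 6, 5 and 5 were lower in 5XFAD at an FDR below 0.05 in NX females, CIH females, NX males and CIH males (13.9%, 51.9%, 17.8% and 49% of all genes in either direction). P2ry12 was a DEG, lower, in CIH females (log2FC -1.07), NX males (-1.22) and CIH males (-1.03). Tmem119 was a DEG, lower, in NX females, CIH females and NX males, and Sall1 in CIH males. In CIH males Fcrls (0.58) and Olfml3 (0.46) were higher at an FDR below 0.05. With the library labelled F 5XFAD NX 4 left out, 5 were lower in NX females at an FDR below 0.05 (44% of all genes), P2ry12 (-1.02) and Tmem119 (-1.22) as DEGs.

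**Figure D5:**
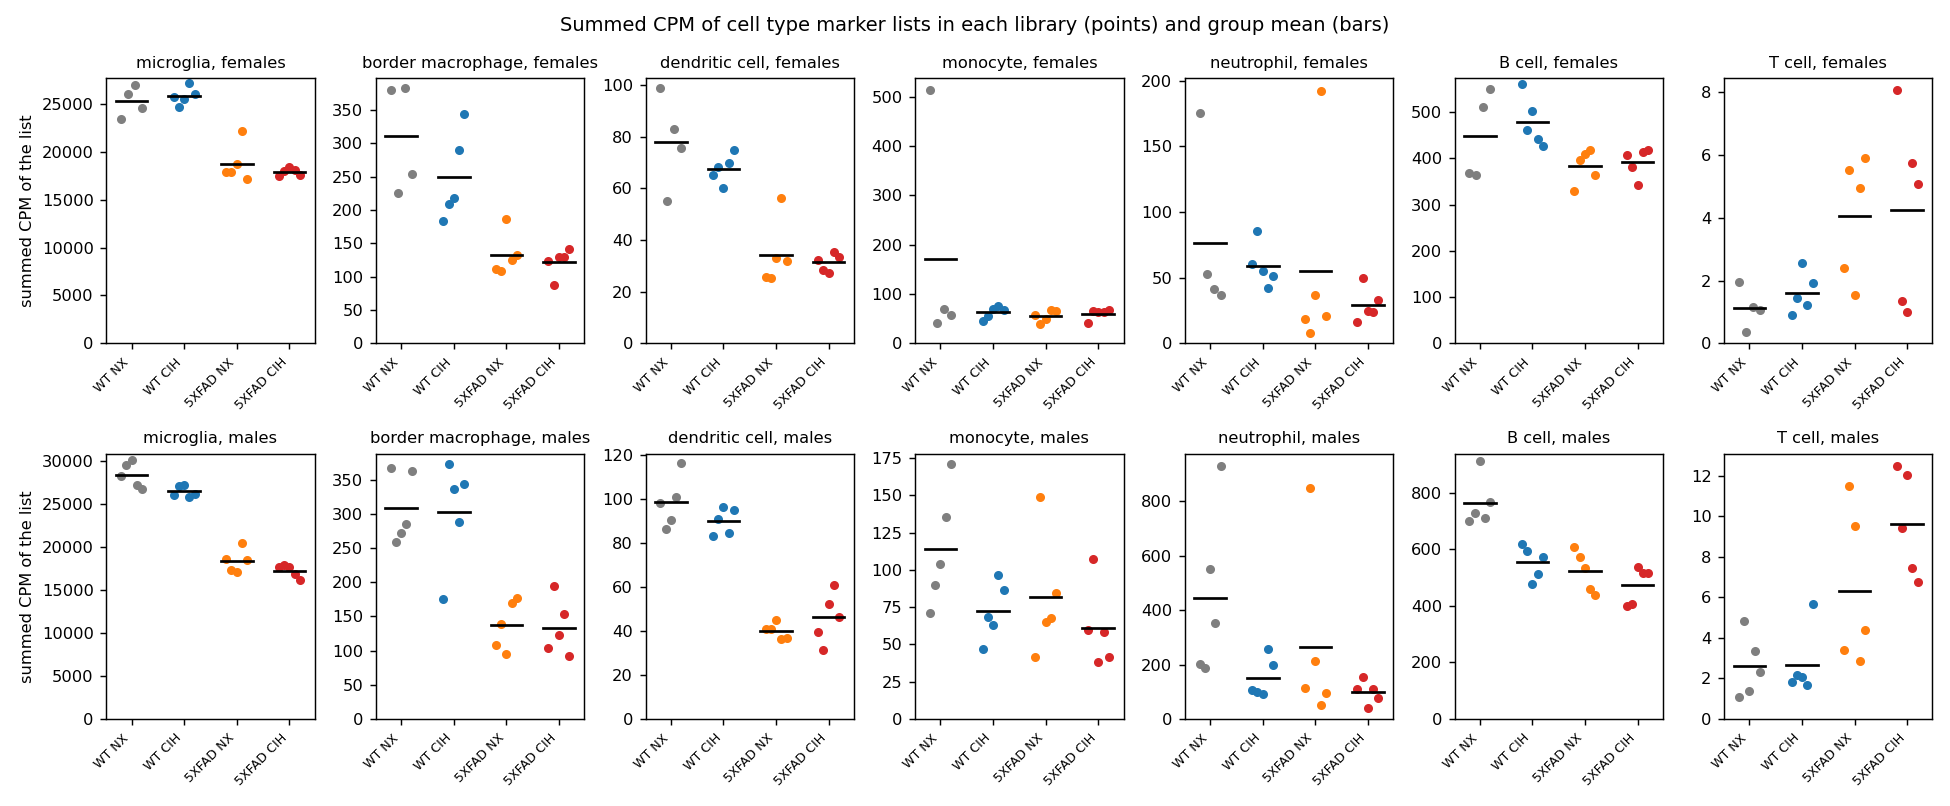
Summed CPM of 7 cell type marker lists (columns) in each library (points) of females (top) and males (bottom), with group means as bars; each linear axis starts at 0. Under CIH, dendritic cell sums of 5XFAD lie below those of WT without overlap (27.1 to 35.3 against 60.0 to 74.7 CPM in females), border macrophage sums overlap in males, and T cell sums are highest in male 5XFAD CIH (6.73 to 12.5 CPM).

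Within groups, the classical chains and Cd74 moved together from library to library. After subtracting group means, each of H2-Aa, H2-Ab1, H2-Eb1 and Cd74 had a Pearson r of at least 0.986 to their common mean in females (19 libraries) and 0.991 in males (20 libraries), to which they contribute. H2-DMa followed at 0.898 and 0.806, H2-DMb1 at 0.815 and 0.770 and Ciita at 0.732 and 0.583. The 5 non-member genes most like this mean were H2-Q4 (0.902), H2-T-ps (0.902), H2-K1 (0.902), H2-D1 (0.887) and Tap2 (0.884) in females, of which H2-K1 and H2-D1 encode classical class I heavy chains and Tap2 a subunit of the peptide transporter. In males they were F8a (0.897), Psmg4 (0.884), Chchd1 (0.882), Qtrt1 (0.874) and H2-Oa (0.872), so no gene was among the nearest 5 in both sexes. The libraries share depth and cell preparation within a group, and these values are a description.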

How the data were processed

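Microglia were isolated with CD11b beads and mRNA was sequenced in 39 libraries; groups came from the sample labels, and each library was treated as 1 sample. According to the submitters' processing notes and the study's methods, reads were aligned with HISAT2 to GRCm38 (mm10); the counting tool is not given in the sources used here. The authors deposited raw counts per gene and FPKM values, in a separate table for each sex. FPKM served only for levels between genes, ratios and the limma alternatives. The female FPKM follow from the counts, a gene length and the library total, while the male FPKM use another library total. A few male rows with altered symbols were matched by Ensembl identifier.

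Each pair of groups was fitted with edgeR 4.0.16 in R 4.3.3 (TMM, quasi-likelihood F test, genes with CPM above 1 in at least 3 libraries, that is 14.7 reads in the smallest female and 13.5 in the smallest male library), over all genes, with Benjamini-Hochberg adjustment. DEGs had an FDR below 0.05 and an absolute log2FC above 1, as in the study's methods. An interaction was fitted over the 4 groups of a sex. Alternatives were DESeq2 1.42.0, edgeR's likelihood ratio test, library size scaling, no filter, a minimum of 10 counts, an FDR of 0.01 or FDR alone, 1 fit over 4 groups, a replicate block, limma 3.58.1 on log2(FPKM + 1) and log2(FPKM + 0.1), and each library left out. Per-library values are plain CPM. Correlations and like genes used log2 CPM with a prior count of 1. The tests were checked on simulated data.

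The members and gene lists were chosen with earlier results of these data known. Named genes were the 7 members, all other class II loci and promoter factors, other pathway genes that were DEGs in any comparison, markers at 10 CPM or more or called, and the 5 genes per sex most like the class II mean. Other pathway genes (Ifng, Ifngr1, Cd80, Cd86, Ctss, Lgmn, Ifi30, Sppl2a, Marchf1 and Marchf8), Cst7 and Gm38969 were named after their values were seen. Some genes of the fixed lists are not reported here. Labels do not name the animals, so p-values measure the spread between these samples. No replicate pair of a group agreed within sampling noise (chi-square per degree of freedom at least 4.59). Promoter sequences are from RefSeq.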

Additional observations from a re-analysis of the deposited data

Results flagged for a closer look

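In female 5XFAD CIH, 1 library, F 5XFAD CIH 5, stood far above the other 4 for all 7 class II genes, by a gap larger than Dixon's 95% critical value. Cd74 was at 2268 CPM in it against 1100.4 CPM in the next library, H2-Aa at 595 against 284 CPM, H2-Ab1 at 549.8 against 276 CPM and H2-Eb1 at 379.6 against 166 CPM. H2-DMa was at 184 against 149 CPM, H2-DMb1 at 116 against 96.3 CPM and Ciita at 12.7 against 8.63 CPM. Of 56 groups of values tested, these 7 were flagged, where chance flags about 1 in 20, and since the genes move together within a library they amount to 1 observation. It was the highest of its group for the summed markers of border macrophages (142 CPM, others 88.2 to 129.9), monocytes (67.7 CPM, others 40.5 to 64.7) and B cells (418 CPM, others 343 to 414), and within the range of the others for dendritic cell (33.4 CPM), T cell (5.08 CPM) and neutrophil (32.7 CPM) markers. The part of these cells in its class II level was not tested. The 3 DEGs between female WT CIH and 5XFAD CIH remained DEGs without it.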

How the results depend on the processing

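Of 1666 fitted log2FC of single members under alternatives, 1547 kept direction and call, 28 gained the call, 24 lost it and 67 changed sign, none of the last being a DEG in either fit. The cause of these changes was not tested beyond what each setting changes.

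The count of members called moved as follows. For female WT NX vs 5XFAD NX (0) it was 1 with DESeq2, the likelihood ratio test, no filter and 4 groups in 1 fit, and 0 to 3 with 1 library left out, the 3 without the library labelled F 5XFAD NX 4. For male WT NX vs 5XFAD NX (1) it was 0 with an FDR of 0.01, the replicate block and both limma fits, 3 without both M 5XFAD NX 4 and 5 (added after seeing the data), and 0 to 1 with 1 library left out. For female and male WT CIH vs 5XFAD CIH (3 and 5) it was 6 in either sex with FDR alone and 3 in males with library size alone, and with 1 library left out 3 in every fit in females and 4 to 5 in males. For male WT NX vs WT CIH (1) it was 6 with FDR alone, 0 with library size alone, no filter, 4 groups in 1 fit, the replicate block and both limma fits, and 0 to 3 with 1 library left out. For the male interaction (0) it was 3 with no filter and 0 to 5 with 1 library left out.

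Replicate numbers are shared between groups, but same-numbered libraries did not steadily deviate together (mean correlation -0.19 to 0.16 per comparison, in none every pair above 0.1). The main fits used no pairing, and so few pairs cannot exclude a shared batch. With the replicate block, 7 genes in all were DEGs in female WT NX vs 5XFAD NX against 869 without it. Signs changed with the block for H2-Eb1 there (-0.054), Ciita in female WT NX vs WT CIH (0.012), H2-DMb1 in male WT NX vs 5XFAD NX (-0.026), and in female 5XFAD NX vs 5XFAD CIH for H2-Aa (0.12), H2-Ab1 (0.14), H2-Eb1 (0.053) and Cd74 (0.13). In that last comparison limma on log2(FPKM + 1) and log2(FPKM + 0.1) gave H2-Aa 0.15 and 0.15, H2-Ab1 0.16 and 0.16, H2-Eb1 0.039 and 0.042, and Cd74 0.18 and 0.18. In male WT NX vs 5XFAD NX, H2-DMb1 was at -0.037 and -0.038 in the limma fits and -0.15 with library size alone, where H2-Eb1 was at -0.011. Ciita in male WT CIH vs 5XFAD CIH was at -0.27 with library size alone. Without the library labelled F 5XFAD NX 4 (added after seeing the data), the difference in log2 ratio to Cd74 between female 5XFAD NX and 5XFAD CIH turned for H2-Aa (0.016), H2-Ab1 (0.083), H2-Eb1 (0.075), H2-DMa (0.29) and H2-DMb1 (0.30). Without both M 5XFAD NX 4 and 5, male 5XFAD NX vs 5XFAD CIH gave H2-Aa -0.11, H2-Ab1 -0.21, H2-Eb1 -0.21, H2-DMa -0.16, H2-DMb1 -0.21 and Cd74 -0.16.

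Leaving out 1 library changed the sign of these, with their lowest and highest values. In female 5XFAD NX vs 5XFAD CIH they were H2-Aa -0.59 to 0.19, H2-Ab1 -0.46 to 0.27, H2-Eb1 -0.59 to 0.20, H2-DMa -0.13 to 0.056, H2-DMb1 -0.11 to 0.050 and Cd74 -0.53 to 0.17. In the female interaction they were H2-Aa -0.30 to 0.48, H2-Ab1 -0.12 to 0.61, H2-Eb1 -0.30 to 0.50, H2-DMa -0.035 to 0.14, H2-DMb1 -0.045 to 0.12 and Cd74 -0.23 to 0.47. Others were Ciita in female WT NX vs WT CIH (-0.20 to 0.22), H2-Eb1 (-0.19 to 0.45) and H2-DMb1 (-0.11 to 0.24) in male WT NX vs 5XFAD NX, Ciita in male WT CIH vs 5XFAD CIH (-0.041 to 0.19), H2-DMb1 in male 5XFAD NX vs 5XFAD CIH (-0.021 to 0.34) and Ciita in the male interaction (-0.38 to 0.092).

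Scaling by library size alone moved the median log2FC of all genes by -0.15 and -0.19 in the female and -0.19 and -0.37 in the male genotype comparisons (NX and CIH). Ciita rested on 54 to 486 counts per library, and the SE of its log2FC was 0.18 to 0.45.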
